A study of Mus musculus with 48 samples.

Results

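The genes described here encode the machinery that burns fatty acids, together with the receptor PPAR alpha and a set of its known target genes. They were chosen by symbol from a fixed list, and 37 of 37 listed symbols were found among the 30055 gene symbols of the count table. Liver and visceral white adipose tissue (called fat below) were profiled by polyA RNA sequencing in C57BL6/J mice of both sexes. From 8 weeks of age the mice received a standard rodent chow (RD, the control) or a high-fat diet (HFD, with 45% of calories from fat). Mice were taken after 2 weeks or, in a separate cohort, after 12 weeks, so time on the diet, age and cohort cannot be told apart. Tissue, sex, diet and time gave 16 groups of 3 libraries each, 48 libraries in all. The study's title asks whether obesity caused by diet changes the differences between the sexes in these tissues.

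Fatty acids enter mitochondria as carnitine esters, a step gated by the CPT1 enzymes, and are then shortened in repeated rounds by acyl-CoA dehydrogenases, hydratases, hydroxyacyl-CoA dehydrogenases and thiolases. Peroxisomes shorten very long chains with their own enzyme set, and the liver turns much of the acetyl-CoA that results into ketone bodies. PPAR alpha is a nuclear receptor that binds fatty acids and switches on most of these genes in the liver, above all during fasting, while white adipose tissue contains little of the receptor and stores fat more than it burns it.

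The thioesterase genes Acot1 to Acot4, whose products cut acyl-CoA back to free fatty acid and coenzyme A, stand next to each other on the plus strand of chromosome 12 (GENCODE M21 on GRCm38). Acot2, the mitochondrial member, spans chr12:83987861-83993873, Acot1, the cytosolic member, chr12:84009490-84018371, Acot4 chr12:84038379-84048601 and Acot3 chr12:84052144-84060402, the last pair being peroxisomal. All 4 are protein-coding genes. Their upstream sequences are shown because Acot3 and Acot4 differed between the sexes in liver in all 4 comparisons below. Each run holds the 250 bases before the gene's RefSeq start (GRCm38.p6, plus strand), and capitals mark the match to the PPAR response element described next.
Acot2, chr12:83987611-83987860: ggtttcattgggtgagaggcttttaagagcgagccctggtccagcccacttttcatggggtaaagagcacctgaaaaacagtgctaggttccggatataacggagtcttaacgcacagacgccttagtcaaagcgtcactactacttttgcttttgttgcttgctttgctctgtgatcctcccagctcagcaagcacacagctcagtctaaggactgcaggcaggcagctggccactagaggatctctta
Acot1, chr12:84009252-84009501: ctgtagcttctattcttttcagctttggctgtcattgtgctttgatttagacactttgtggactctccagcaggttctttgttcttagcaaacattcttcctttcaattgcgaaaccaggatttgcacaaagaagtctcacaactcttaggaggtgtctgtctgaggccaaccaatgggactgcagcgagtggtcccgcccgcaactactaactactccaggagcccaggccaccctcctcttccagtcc
Acot4, chr12:84038129-84038378: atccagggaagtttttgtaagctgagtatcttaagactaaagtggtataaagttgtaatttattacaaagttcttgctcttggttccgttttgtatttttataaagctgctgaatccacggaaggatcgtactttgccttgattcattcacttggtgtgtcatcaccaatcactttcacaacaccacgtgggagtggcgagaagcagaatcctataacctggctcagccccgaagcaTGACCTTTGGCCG
Acot3, chr12:84051894-84052143: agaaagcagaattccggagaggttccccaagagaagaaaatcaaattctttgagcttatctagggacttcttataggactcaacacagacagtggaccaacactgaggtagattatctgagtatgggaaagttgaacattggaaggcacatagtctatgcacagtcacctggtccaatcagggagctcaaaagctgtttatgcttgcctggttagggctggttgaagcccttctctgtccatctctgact

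The element searched was AGGTCANAGGTCA, a direct repeat of AGGTCA with 1 base between, on both strands of the 250 upstream bases. RefSeq promoters matched 30 of the 37 symbols, with 33 starts. Allowing 2 mismatches, 3 of 33 member promoters (9.09%) and 1063 of 32851 promoters of all genes (3.24%) held a match. In Acot4 the match was TGACCTTTGGCCG on the minus strand, 13 to 1 bases before the start. In Etfa it was TTACCTTTGCCCT on the minus strand, 77 to 65 bases before the start, and in Echs1 AGGTCACGGGTCC on the plus strand, 83 to 71 bases before it. No member promoter held a match with 1 or 0 mismatches, against 0.484% and 0.0335% of all promoters, and with 3 mismatches the shares were 27.3% and 21.3%. These are letter matches in a short window, and Acot1, Acot2 and Acot3 held none within 2 mismatches.

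Library totals were 50.89 to 80.06 M expected counts in liver and 44.7 to 105.4 M in fat, and 15897 and 18325 genes passed the filter on low counts. Eci1 passed it too but reached 1.125 CPM (counts relative to library size, scaled by TMM within each tissue) at most in any library, so it is left out of the counts below, which cover 36 members. Whether reads of Eci1 were assigned to another annotated gene was not tested, so its low counts do not show that it is hardly expressed. Hepatocyte markers were detected throughout liver, with summed levels of 115900 to 187200 CPM, and adipocyte markers throughout fat, with 11150 to 41550 CPM. Libraries are named by sex and by the group number in the labels, which does not say whether libraries came from separate mice, so p-values measure only the spread between these libraries. In bulk tissue, fewer cells of a type and less RNA per cell cannot be told apart. Some libraries stood apart. In liver, HFD male 13 at 2 weeks had an acute phase sum of 124800 CPM, the sums of pancreas acinar markers were 7660, 225.4 and 1.356 CPM in RD males 8, 6 and 7 at 2 weeks against at most 4.031 CPM in every other liver library, and HFD male 4 at 12 weeks had an acute phase sum of 46660 CPM beside 18260 and 22790 CPM. In fat, epididymis markers summed to 12000 and 2698 CPM in RD males 6 and 8 and to 8099 CPM in HFD male 13 at 2 weeks, against at most 19.31 CPM in the other 2-week males. At 12 weeks they summed to 3627 to 5479 CPM in RD males and 20.32 to 21.32 CPM in HFD males. Reads can be shared between near-identical genes: 79.7% of the 31-base words of Cpt1b also occur in another gene, as do 49.9% for Etfb, 40.0% for Acaa1b, 37.3% for Acot2, 23.3% for Hadhb, 23.1% for Acot3 and 22.7% for Acot1, so the split between such genes is uncertain.

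Levels between genes were compared as CPM per kilobase of exon. In liver the thiolases Acaa2 (401.2) and Acaa1b (371.1) and the very long chain acyl-CoA synthetase Slc27a2 (325 CPM per kilobase) led the set, and Cpt1b, the muscle form of CPT1, was lowest at 1.351. In fat the acyl-CoA synthetase Acsl1 (173.8), the electron transfer flavoprotein subunit Etfb (159) and Angptl4, a secreted inhibitor of lipoprotein lipase (153.3 CPM per kilobase), led, and Acot3 was lowest at 0.1563. Ppara stood at 39.08 in liver and 2.633 CPM per kilobase in fat. Over 28 comparisons within a tissue, 24 of 36 members (66.7%) passed the test at least once, beside 55.6% of the 18635 genes tested. Acot4 passed in 7, Pdk4 in 6 and Cpt1a, Acot3 and Bdh1 in 5 each. The 12 that never passed included the electron transfer genes Etfa, Etfb and Etfdh, the carnitine carrier Slc25a20, Slc27a2 and Acsl1.

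Acot3 and Acot4 were higher in females than in males on both diets and at both times. On RD at 2 weeks, the 3 females had 44.3, 101 and 55.9 CPM of Acot3 and the 3 males 0.414, 1.05 and 1.66 CPM. The lowest female library lay far above the highest male library, with a log2 fold change of 6.01 ± 0.8 (SE, n = 3 against 3, edgeR adjusted p = 7.2e-05). Acot4 was 95.5, 127 and 96.9 CPM in these females and 27.1, 25.8 and 30.9 CPM in these males (log2 fold change 1.93 ± 0.35, edgeR adjusted p = 0.0014). At 12 weeks on RD, Acot3 was 119, 43.4 and 175 CPM in females and 1.39, 6.72 and 7.41 CPM in males, again without overlap (log2 fold change 4.44 ± 0.73, edgeR adjusted p = 0.00076). Acot4 was 157, 95.4 and 191 CPM in the same females and 34.3, 68.0 and 58.9 CPM in the males (log2 fold change 1.46 ± 0.34, edgeR adjusted p = 0.011). Over both diets and times, the 12 female livers ranged from 22.6 to 224 CPM of Acot3 (median 110) and the 12 male livers from 0.156 to 13.9 CPM (median 1.53). For Acot4 the female range was 59.0 to 224 CPM and the male range 15.6 to 79.9 CPM, which overlap, although the groups of each comparison did not. The Acot3 call held under all 10 alternatives in each of the 4 comparisons of sex, and the Acot4 call in 3 of them, RD at 2 weeks and HFD at both times.

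**Figure D1:**
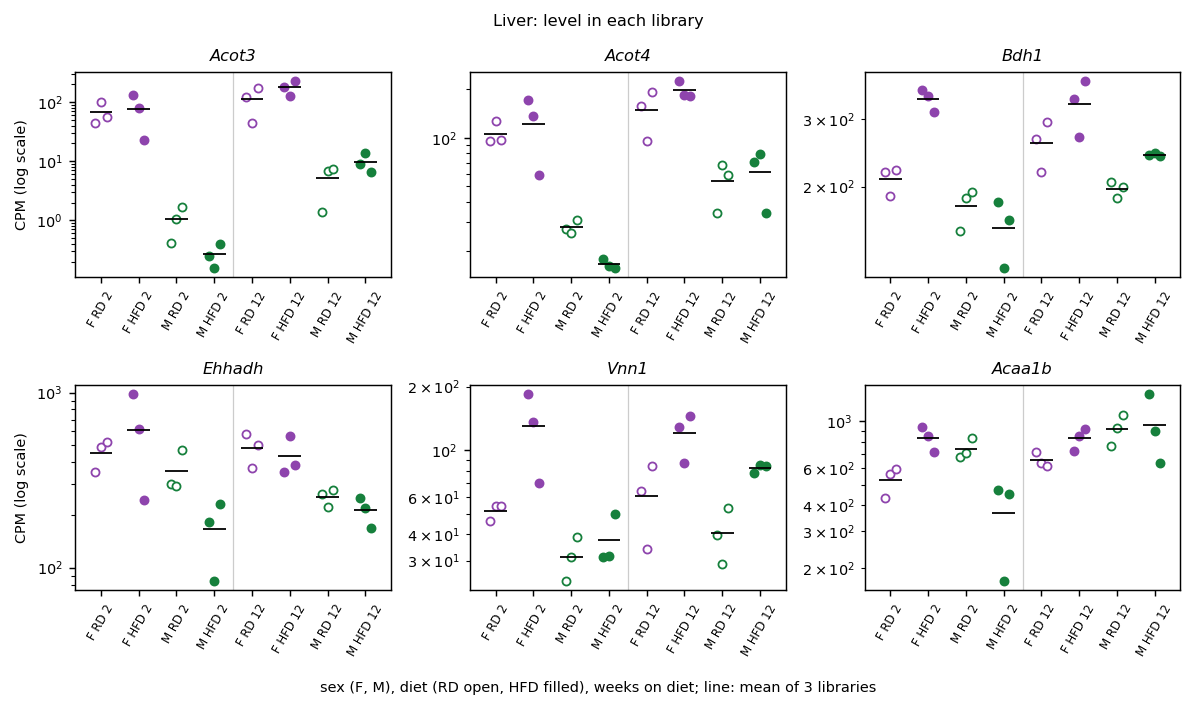
CPM per library on a log axis in liver for 6 members, by sex (F, M), diet (RD open, HFD filled) and weeks on the diet, with a line at the mean of 3 libraries. Every female library of Acot3 (22.6 CPM or more) lies above every male library (13.9 CPM or less), and HFD male 13 at 2 weeks is the lowest library for Acaa1b (174.7 CPM) and Ehhadh (84.27 CPM).

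On RD at 2 weeks, 6 of 36 members differed between the sexes, 3 higher and 3 lower in females, against 9.81% of all genes tested (5.37% higher and 4.45% lower in females). The median log2 fold change of the members was -0.09, beside 0.06 over all genes. Besides Acot3 and Acot4, Hadh, a mitochondrial hydroxyacyl-CoA dehydrogenase, was higher in females at 297, 279 and 299 CPM against 182, 216 and 223 CPM in males (log2 fold change 0.49 ± 0.14, edgeR adjusted p = 0.026). The peroxisomal thiolase Acaa1a was lower in females at 84.4, 111 and 103 CPM against 146, 153 and 169 CPM (log2 fold change -0.65 ± 0.18, edgeR adjusted p = 0.029). The mitochondrial thiolase Acaa2 was lower at 464, 468 and 507 CPM against 569, 684 and 714 CPM (log2 fold change -0.45 ± 0.13, edgeR adjusted p = 0.035). Hsd17b4, the multifunctional peroxisomal enzyme, was lower at 275, 294 and 283 CPM against 361, 359 and 420 CPM (log2 fold change -0.42 ± 0.11, edgeR adjusted p = 0.023). None of these 4 genes overlapped between the sexes, but their calls were sensitive to single libraries. The count was 2 without RD female 1 or 4, and 3 without RD female 2, RD male 7 or RD male 8, and the pancreas acinar signal named above lies in RD males 8 and 6. With the 2 groups fitted alone it was 15, and the share of all genes in that fit is not given here.

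On HFD at 2 weeks, 13 of 36 members were higher in females and none was lower, against 12.4% of all genes in either direction and 6.33% in the higher direction. The median of the members was 0.35 on the log2 scale, beside 0.05 over all genes. DESeq2 called 15, and leaving out a library left 11 to 16. With these 2 groups fitted alone, 6 remained called, namely Cpt1b, Acot2, Acot3, Acot4, Bdh1 and Vnn1. Acot3 was 129.7, 78.3 and 22.6 CPM in females and 0.245, 0.156 and 0.401 CPM in males (log2 fold change 8.17 ± 0.91, edgeR adjusted p = 8.9e-06). Acot4 was 172, 137 and 59.0 CPM against 17.8, 16.1 and 15.6 CPM (log2 fold change 2.9 ± 0.36, edgeR adjusted p = 2.1e-05). Bdh1, which interconverts the ketone bodies acetoacetate and beta-hydroxybutyrate, was 356, 343 and 313 CPM against 182, 123 and 163 CPM (log2 fold change 1.11 ± 0.15, edgeR adjusted p = 4e-05). In all 3 genes the lowest female library exceeded the highest male library.

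Of the 9 mitochondrial dehydrogenases, trifunctional protein subunits, hydratase and thiolase among the members, 4 were higher in females on HFD at 2 weeks, Acadl, Acadm, Hadha and Hadh. The other 5, Acadvl, Acads, Hadhb, Echs1 and Acaa2, did not pass, with log2 differences of 0.04 to 0.35 and overlapping groups (edgeR adjusted p = 0.17 to 0.89). Acadl, the long-chain acyl-CoA dehydrogenase, was 257, 220.3 and 202 CPM in females and 147, 109.8 and 143 CPM in males (log2 fold change 0.76 ± 0.13, edgeR adjusted p = 0.00053). Hadha, the alpha subunit of the trifunctional protein, was 454, 400.1 and 432 CPM against 326, 257 and 314 CPM (log2 fold change 0.52 ± 0.11, edgeR adjusted p = 0.0035). Hadh was 343, 362 and 253 CPM against 222, 169 and 206 CPM (log2 fold change 0.68 ± 0.14, edgeR adjusted p = 0.0022). Their groups did not overlap. The peroxisomal bifunctional enzyme Ehhadh was 981, 618 and 243 CPM against 183, 84.3 and 229.6 CPM, which left HFD female 5 just above the highest male (log2 fold change 1.89 ± 0.4, edgeR adjusted p = 0.0037). Vnn1, a pantetheinase, reached 185, 135 and 69.8 CPM against 31.3, 31.4 and 49.8 CPM (log2 fold change 1.79 ± 0.34, edgeR adjusted p = 0.0015). The other 5 called members, Acot2, Cpt1b, Acaa1b, Acadm and Acot1, had log2 fold changes of 0.6 to 2.18. In the same comparison 16 of 18 acute phase genes were lower in females, and HFD male 13, whose acute phase sum was highest, was the lowest male for Ehhadh, Acaa1b, Acadl, Hadha and Hadh. Without that library 11 members were called, Acadm and Acot1 no longer among them. The part of the acute phase signal in the result beyond that library was not tested.

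At 12 weeks, 4 of 36 members on RD (3 higher and 1 lower in females, against 8.81% of all genes, 5.63% higher and 3.18% lower) and 5 of 36 on HFD (4 higher and 1 lower, against 17.3%, 9.93% higher and 7.4% lower) differed between the sexes. The medians were 0.15 on RD and 0.09 on HFD, beside 0.03 and 0.01 over all genes on the log2 scale. On RD, Acot2 was higher in females, at 15.8, 8.11 and 17.5 CPM against 3.31, 4.49 and 6.20 CPM (log2 fold change 1.56 ± 0.43, edgeR adjusted p = 0.026). On HFD, Acot3 was 181, 128 and 224 CPM in females and 9.01, 13.9 and 6.49 CPM in males (log2 fold change 4.18 ± 0.72, edgeR adjusted p = 0.00059). Acot4 was 224, 186 and 183 CPM against 71.2, 79.9 and 34.4 CPM (log2 fold change 1.67 ± 0.35, edgeR adjusted p = 0.0024). Both genes were again without overlap between the sexes. Pdk4, a kinase that holds back pyruvate oxidation, was 12.4, 43.7 and 20.9 CPM in HFD females and 10.3, 6.06 and 5.27 CPM in HFD males, with the lowest female just above the highest male (log2 fold change 1.83 ± 0.53, edgeR adjusted p = 0.025). Bdh1 was 337, 269 and 376 CPM against 241, 244 and 239.9 CPM (log2 fold change 0.44 ± 0.15, edgeR adjusted p = 0.047), a call lost in 8 of 10 alternatives: RLE scaling, no low-count filter, the 2 groups alone and leaving out HFD female 3 or 7 or any of the HFD males. At 12 weeks females had less Hsd17b4 whatever the diet, at 311, 288 and 329 against 403, 367 and 457 CPM on RD (log2 fold change -0.4 ± 0.11) and at 364, 349 and 394 against 465, 486 and 496 CPM on HFD (log2 fold change -0.39 ± 0.11). On HFD at 2 weeks Hsd17b4 did not pass, at 404, 368 and 378.5 against 355.5, 300.6 and 393 CPM, with overlap (log2 difference 0.13 ± 0.11, edgeR adjusted p = 0.48). The Hsd17b4 calls at 12 weeks were lost in 6 of 10 alternatives on RD and 5 of 10 on HFD. The count on RD was 2 without RD female 5 and 1 without RD female 8 or RD male 2, with Acot3 called throughout. On HFD it was 3 without HFD female 3, HFD female 6 or HFD male 3, 2 without HFD male 4, and 3 with the 2 groups alone. Macrophage markers moved with sex here, 8 of 14 being higher in HFD females at 12 weeks, with sums of 616.5 to 692.7 CPM against 189.3 to 296.1 CPM, and their part in these results was not tested.

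**Figure D2:**
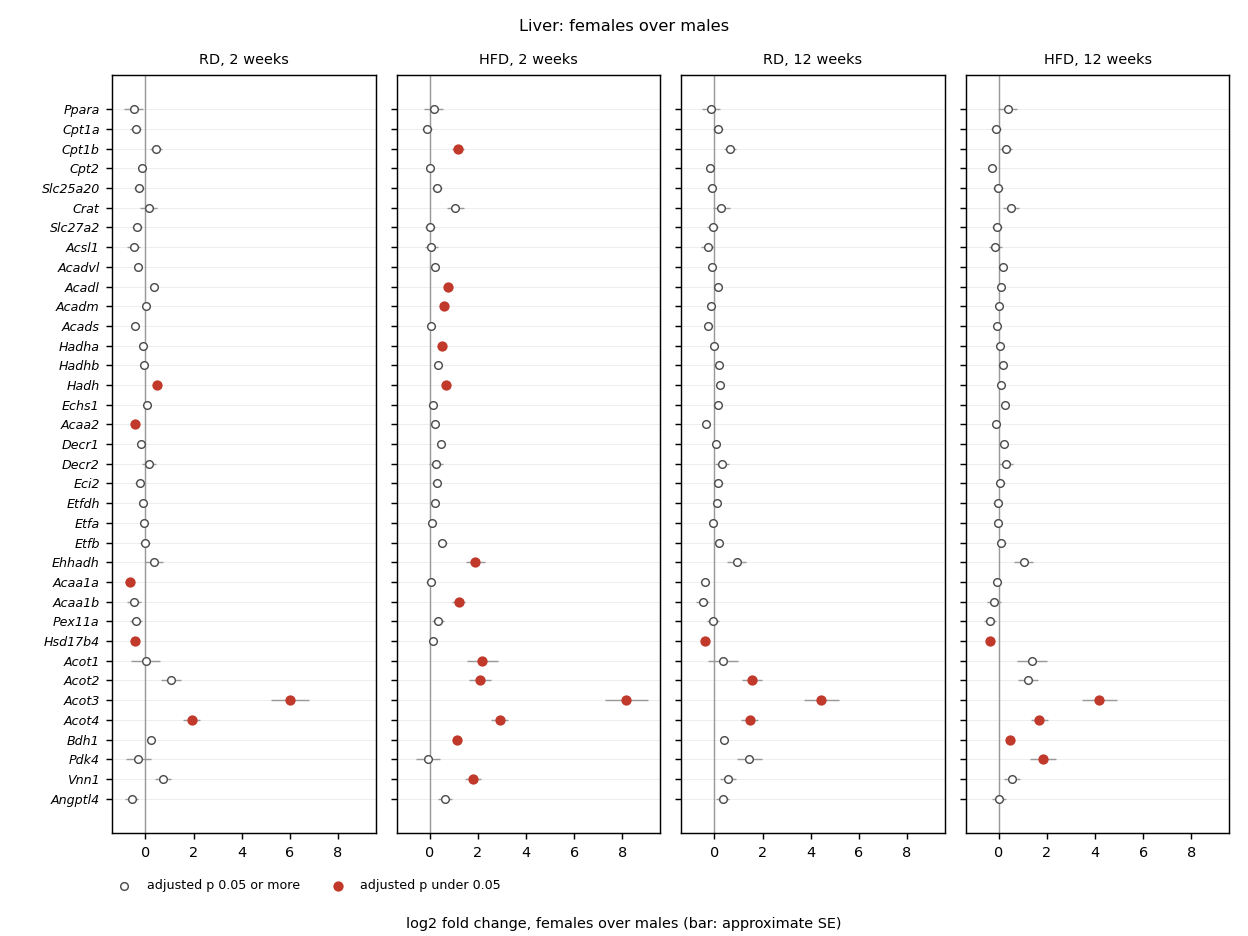
Log2 fold changes of females over males in liver for 36 members (bars: approximate SE, filled points: edgeR adjusted p under 0.05), in 4 panels by diet and time. Acot3 (4.18 to 8.17) and Acot4 (1.46 to 2.9) are filled in each panel, and the panel for HFD at 2 weeks has 13 filled points.

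Other genes of the pathway were counted from lists of known members. On HFD at 2 weeks, among 31 other PPAR alpha targets tested, 8 were higher in female liver and 1 was lower, with a median of 0.65 beside 0.05 over all genes. The fatty acid hydroxylase Cyp4a14 had 1300 against 17.0 CPM (log2 fold change 6.26), and the lipoprotein receptor Vldlr had a log2 fold change of 3.89. On RD at 2 weeks the same list had 3 higher and 2 lower genes and a median of -0.12. At 12 weeks the PPAR alpha list had 2 higher genes on RD and 4 higher and 3 lower genes on HFD, with medians of 0.05 and 0.06. The list counts in this paragraph stand beside these shares of all genes higher and lower in females. At 2 weeks they were 5.37% and 4.45% on RD and 6.33% and 6.06% on HFD. At 12 weeks they were 5.63% and 3.18% on RD and 9.93% and 7.4% on HFD. Among 22 other peroxisomal genes, Abcd2, a transporter of very long chain acyl-CoA, was higher in females in all 4 comparisons (log2 fold change 2.35 to 4.73). Of 14 genes that respond to fasting or feeding, 4 were higher and none lower in females on HFD at 2 weeks, with a median of 0.29, against 6.33% of all genes higher. They included Fasn, the fatty acid synthase (299 against 63.4 CPM, log2 fold change 2.24 ± 0.48), and Ppp1r3c, a glycogen-targeting phosphatase subunit (57.6 against 15.7 CPM, log2 fold change 1.87 ± 0.5). Of 27 regulators of fatty acid oxidation 2 were higher there, among them the coactivator Ppargc1a (17.3 against 5.46 CPM, log2 fold change 1.66 ± 0.26), and of 15 other genes of acyl-CoA synthesis and fatty acid uptake 1 was higher and 1 lower. In the other 3 comparisons of sex the fasting list had 1 to 3 higher genes and none lower, the regulators 0 to 1 higher and 0 to 2 lower, and the uptake list 0 higher and 1 to 4 lower.

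The diet itself moved no member past the threshold in liver. On HFD for 2 weeks, females had 0 of 36 called members by edgeR (0.252% of all genes were called, 0.0315% higher and 0.22% lower). An unadjusted edgeR p under 0.05 was found for 19, all positive. DESeq2 called 9, which were Acadvl, Acadm, Hadha, Acaa2, Decr1, Acaa1a, Hsd17b4, Bdh1 and Vnn1. Throughout, the shares of all genes called refer to edgeR adjusted p. Counts by unadjusted p or by DESeq2 have no share of all genes beside them, and the edgeR shares are no background for them. The log2 difference was positive in 35 of 36 members with a median of 0.44, beside 0 over all genes, of which 50.4% were positive. The groups did not overlap for 17 members, and the share of all genes without overlap was not counted. Ppara was 169, 191 and 50.2 CPM on HFD and 99.6, 126 and 121 CPM on RD, so HFD female 5 was the lowest of the 6 libraries while the others on HFD were the highest. Cpt1a was 657, 585 and 370.2 CPM against 277, 411 and 448 CPM, overlapping in the same library (log2 difference 0.5 ± 0.22, edgeR adjusted p = 0.46). Acot1 was 73.6, 40.4 and 21.0 CPM against 13.1, 24.5 and 13.1 CPM (log2 difference 1.42 ± 0.62, edgeR adjusted p = 0.46). Angptl4 was 143, 128 and 124 CPM against 94.2, 86.2 and 90.2 CPM without overlap (log2 difference 0.54 ± 0.28, edgeR adjusted p = 0.53), and Pdk4 was 31.3, 22.8 and 14.7 against 28.2, 41.4 and 13.1 CPM. Without HFD female 5, 2 members passed, Acadm and Vnn1, both higher on HFD, and 36 of all genes were called.

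In males at 2 weeks, 0 of 36 members were called by edgeR (0.34% of all genes were, 0.12% higher and 0.22% lower), 6 had an unadjusted p under 0.05, all negative, and DESeq2 called Acaa1b alone, lower on HFD. The median was -0.08 beside 0.01 over all genes. Ppara was 107, 109.9 and 150.2 CPM on HFD and 137, 158 and 191 CPM on RD, Cpt1a 534, 541 and 686 against 451, 448 and 611 CPM. Those groups overlapped. Angptl4 was 95.2, 57.9 and 103 CPM against 143, 137 and 124 CPM without overlap (log2 difference -0.65 ± 0.28, edgeR adjusted p = 0.38). Acot1 was 14.0, 2.94 and 12.8 against 12.1, 14.0 and 24.1 CPM, and Pdk4 18.6, 22.4 and 32.2 against 29.1, 28.4 and 43.6 CPM, both with overlap. HFD male 13 was the lowest of the 6 libraries for Angptl4 and Acot1.

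After 12 weeks no member was called in females or in males (0.00629% and 1.12% of all genes were, in males 0.201% higher and 0.918% lower), and DESeq2 called 0 in both. Unadjusted p was under 0.05 for 4 members in females and 7 in males, all positive, and 33 and 29 of 36 differences were positive with medians of 0.27 and 0.17, beside -0.01 and 0.02 over all genes. In females Ppara was 217, 196 and 222 CPM on HFD and 147, 109 and 153 CPM on RD, without overlap (log2 difference 0.64 ± 0.39, edgeR adjusted p = 1). Cpt1a was 663, 618 and 688 CPM against 562, 359.6 and 638 CPM, Acot1 26.7, 50.4 and 29.3 against 29.0, 9.88 and 36.8 CPM, and these overlapped. Pdk4 was 12.4, 43.7 and 20.9 against 47.6, 14.4 and 32.9 CPM, and Angptl4 158, 222 and 104 against 208, 92.4 and 178 CPM, with as much spread within a diet as between diets. In males Cpt1a was 674, 821 and 640.1 CPM on HFD and 414, 461 and 537 CPM on RD, without overlap (log2 difference 0.6 ± 0.23, edgeR adjusted p = 0.25). Ppara was 196, 225 and 71.0 CPM against 105, 155 and 191 CPM, where HFD male 4, the library with the high acute phase sum, was the lowest of all. Acot1 was 17.0, 18.04 and 5.31 against 12.9, 15.99 and 30.4 CPM, Pdk4 10.3, 6.06 and 5.27 against 6.28, 10.8 and 17.9 CPM, and Angptl4 161, 191 and 129 against 92.5, 132 and 153 CPM, all overlapping.

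**Figure D3:**
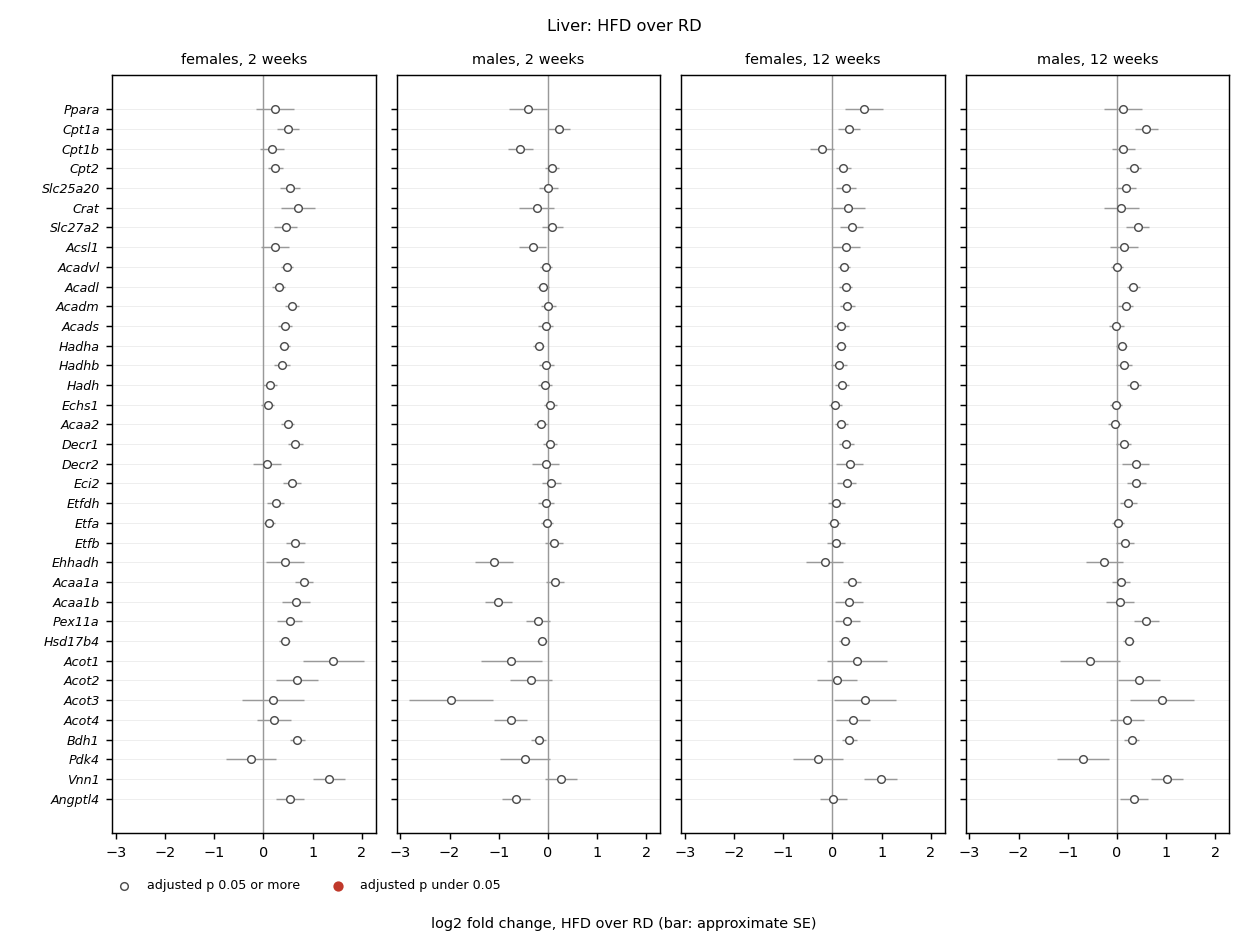
Log2 fold changes of HFD over RD in liver for 36 members (bars: approximate SE), in 4 panels by sex and time. No point is filled, since none had an edgeR adjusted p under 0.05, while 35 of 36 points lie right of 0 in females at 2 weeks and 25 of 36 lie left of it in males at 2 weeks.

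Among the other pathway genes, the diet moved few in liver. Of the lists of fasting response, regulators and acyl-CoA synthesis and uptake, 1 gene passed in the 4 diet comparisons, Sds, serine dehydratase, which rose in males at 2 weeks (73.2 to 149 CPM, log2 fold change 1.03 ± 0.19, edgeR adjusted p = 0.023). Tmem135, from the list of other PPAR alpha targets, fell in females (61.1 against 87.7 CPM, log2 fold change -0.52 ± 0.11, edgeR adjusted p = 0.049) and in males (log2 fold change -0.51) at 2 weeks. Of 31 other PPAR alpha targets, 28 were positive in females at 2 weeks with a median of 0.39, against 10 in males with a median of -0.33. In males at 12 weeks the lipid droplet gene Cidec rose from 5.98 to 27.4 CPM (log2 fold change 2.2 ± 0.47) and Lpl, lipoprotein lipase, fell from 28.4 to 9.93 CPM (log2 fold change -1.52 ± 0.22).

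The sexes' responses to the diet were compared directly, a positive value meaning a higher ratio of HFD to RD in females. In liver at 2 weeks, all 36 members were positive, with a median of 0.57 beside -0.01 over all genes. No member was called by edgeR, nor was any of the 15897 genes (0%). By unadjusted p, 16 members were under 0.05, and the last of them, Cpt1b, ranked 1422 among the 15897 genes. At least 1422 genes thus lay under the same limit, so the 0% is no background for these 16. DESeq2 called 4, Hadha, Acaa1b, Hsd17b4 and Bdh1, and its share of all genes is not given here. All 18 acute phase genes had the opposite sign in this comparison, none called, with a median of -1.56. Their sums were 43820 to 124800 CPM in HFD males and 32220 to 40620 CPM in RD males, against 24430 to 29910 and 22850 to 24000 CPM in HFD and RD females. Over all 37 members the median of 0.58 became 0.45 without HFD male 13 and 0.63 without HFD female 5, and the part of the acute phase signal beyond that was not tested. At 12 weeks 20 of 36 were positive, none was called (0% of all genes), none had an unadjusted p under 0.05, and DESeq2 called 0. These comparisons use the same libraries as the comparisons of diet and sex above and are no separate evidence.

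With time on HFD, 12 of 36 members rose and 1 fell in male liver, between the separate cohorts at 2 and 12 weeks, against 17.1% of all genes in either direction (7.71% higher and 9.4% lower). The median was 0.36, beside 0.02 over all genes on the log2 scale. Acadl was 228, 235 and 239 CPM at 12 weeks and 147, 109.8 and 143 CPM at 2 weeks (log2 fold change 0.81 ± 0.13, edgeR adjusted p = 0.00029). Acot3 was 9.01, 13.9 and 6.49 against 0.245, 0.156 and 0.401 CPM (log2 fold change 5.2 ± 0.84, edgeR adjusted p = 0.00044), and Acot4 was 71.2, 79.9 and 34.4 against 17.8, 16.1 and 15.6 CPM (log2 fold change 1.91 ± 0.35, edgeR adjusted p = 0.001). The groups did not overlap in any of these, and the 3 calls held under all 10 alternatives. Hadh was 369.5, 351 and 283 CPM against 222, 169 and 206 CPM (log2 fold change 0.75 ± 0.14, edgeR adjusted p = 0.00086). Acaa1b was 1348, 896 and 629.8 CPM against 474, 175 and 451 CPM (log2 fold change 1.39 ± 0.29, edgeR adjusted p = 0.0023), and Bdh1 was 241, 244 and 239.9 against 182, 123 and 163 CPM (log2 fold change 0.63 ± 0.15, edgeR adjusted p = 0.006). In each of these the lowest library at 12 weeks exceeded the highest at 2 weeks. Acadm, the medium-chain dehydrogenase, was 346, 320.4 and 315 CPM against 235, 174 and 235 CPM (log2 fold change 0.61 ± 0.15, edgeR adjusted p = 0.0071), and Hsd17b4 was 465, 486 and 496 against 356, 301 and 393 CPM (log2 fold change 0.46 ± 0.11, edgeR adjusted p = 0.0078), also without overlap. The other called members were Vnn1, Hadha, Angptl4 and Pex11a, higher at 12 weeks, and Pdk4, lower (log2 fold change -1.76 ± 0.53). The count was 8 without HFD male 3 at 12 weeks or HFD male 13 at 2 weeks, and 5 with the groups alone.

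Beside this difference with time, 14 of 18 acute phase genes and 10 of 14 macrophage markers fell, and 6 of 17 clock genes rose and 3 fell. Dbp, a clock output gene, was 66.4, 87.5 and 9.10 CPM at 12 weeks and 2.46, 0.837 and 2.13 CPM at 2 weeks, and Arntl, its activator, was 3.06, 2.49 and 2.45 against 13.8, 18.8 and 14.9 CPM. The part of these in the members' change was not tested, and sampling hour was not used here. In the other 3 comparisons of time in liver no member was called by edgeR: RD females (0% of all genes called, 1 member with an unadjusted p under 0.05), HFD females (0.0189%, 1 member) and RD males (0.233%, 0.12% higher and 0.113% lower, 6 members). DESeq2 called Acot3 in RD males and 0 members in the others.

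In fat, Cpt1a, the gate of mitochondrial fatty acid entry, rose with the diet in 3 of 4 comparisons. In females at 2 weeks it was 141, 125 and 113 CPM on HFD and 57.2, 58.7 and 71.6 CPM on RD, without overlap (log2 fold change 1.02 ± 0.17, edgeR adjusted p = 0.027), and 1 of 36 members was called against 0.235% of all genes (0.0982% higher and 0.136% lower). The median of the members was -0.19 beside 0.04 over all genes. That call was lost without HFD female 1, RD female 1, RD female 2 or RD female 4 (0 members), with the groups alone and with the replicate block, and without HFD female 2 the count was 2, with Pex11a lower. HFD female 1, the highest library for Cpt1a here, had the lowest adipocyte sum in fat (11150 CPM). It also had a sum of 3093 CPM for markers of other epithelia, and the part of either in this result was not tested. DESeq2 called 5. At 12 weeks in females Cpt1a was 168, 160.3 and 183 CPM on HFD and 90.3, 81.9 and 114 CPM on RD (log2 fold change 0.84 ± 0.17, edgeR adjusted p = 0.013), a call lost without HFD female 7, RD female 5 or RD female 7. In males at 12 weeks it was 191, 225 and 213 CPM against 120.3, 79.4 and 76.5 CPM (log2 fold change 1.19 ± 0.17, edgeR adjusted p = 0.00011). The lowest HFD library exceeded the highest RD library in both sexes. In males at 2 weeks it was 142, 124 and 149 against 98.2, 113 and 118 CPM, without overlap but short of the threshold (log2 difference 0.33 ± 0.17, edgeR adjusted p = 0.47).

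At 12 weeks in male fat, 4 of 36 members rose and 2 fell on HFD, against 28.2% of all genes in either direction (13.2% higher and 15% lower). The median of the members was -0.02 beside -0.11 over all genes. Pdk4 was 174, 160.1 and 437 CPM on HFD and 50.8, 58.9 and 38.6 CPM on RD (log2 fold change 2.38 ± 0.45, edgeR adjusted p = 0.0014). Angptl4 was 944, 769.5 and 889.9 CPM against 399.9, 359 and 339 CPM (log2 fold change 1.25 ± 0.26, edgeR adjusted p = 0.0024). Neither overlapped between diets, and their calls and that of Cpt1a held under all 11 alternatives. Acaa1b rose, at 99.6, 83.0 and 104 against 46.1, 57.9 and 39.1 CPM (log2 fold change 1.0 ± 0.36, edgeR adjusted p = 0.044), a call lost on leaving out any of the 6 libraries. Echs1, the short-chain enoyl-CoA hydratase, fell, at 165, 137 and 155 against 214, 321 and 300.3 CPM (log2 fold change -0.87 ± 0.25, edgeR adjusted p = 0.016). Bdh1 fell, at 0.86, 1.25 and 0.747 against 4.33, 4.98 and 32.8 CPM (log2 fold change -3.88 ± 1.12, edgeR adjusted p = 0.017), the highest value being in RD male 4, which also had the highest sum of epididymis markers (5479 CPM). Its call was lost without RD male 4, HFD male 2 or HFD male 4, and that of Echs1 without RD male 3, RD male 4, HFD male 3 or HFD male 4. Ppara was 6.93, 5.89 and 4.07 CPM on HFD and 10.03, 8.83 and 11.3 CPM on RD (log2 difference -0.83 ± 0.34, edgeR adjusted p = 0.072). Acot1 was 0.632, 0.997 and 1.37 against 2.72, 7.39 and 9.16 CPM (log2 difference -2.68 ± 1.09, edgeR adjusted p = 0.07), and neither of these overlapped.

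The count in male fat at 12 weeks was 3 without HFD male 4. With the group number as a replicate block it was 10, with 7 higher and 3 lower, Ppara, Hadha, Hadhb and Hsd17b4 being added. DESeq2 and the groups alone gave 10 each, 5 higher and 5 lower. The shares of all genes under these alternatives are not given here, and the 28.2% above belongs to the main fit. Beside the diet, 10 of 14 macrophage markers rose in these libraries, from sums of 960 to 1212 CPM on RD to 3671 to 4925 CPM on HFD, while adipocyte sums were 29160 to 40220 and 29510 to 34990 CPM, and 10 of 12 markers of other epithelia fell along with the epididymis sum. Their part in the members' changes was not tested.

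In female fat at 12 weeks, 1 of 36 members rose and 2 fell, against 2.08% of all genes (1.3% higher and 0.775% lower), with a median of -0.15 beside -0.02 over all genes. Besides Cpt1a, Acot4 fell, at 10.4, 7.79 and 10.3 CPM on HFD and 25.9, 18.5 and 38.6 CPM on RD (log2 fold change -1.55 ± 0.33, edgeR adjusted p = 0.018). Acot2 fell, at 13.8, 11.1 and 15.6 against 25.6, 21.6 and 27.0 CPM (log2 fold change -0.88 ± 0.2, edgeR adjusted p = 0.029). Neither overlapped between diets. Ppara was 5.81, 6.30 and 4.16 against 10.7, 10.98 and 9.17 CPM, also without overlap (log2 difference -0.92 ± 0.34, edgeR adjusted p = 0.2). Angptl4 was 556, 639 and 635 against 432, 401 and 427 CPM (log2 difference 0.54 ± 0.25, edgeR adjusted p = 0.34), and Pdk4 was 149, 91.2 and 126 against 179.9, 98.5 and 254 CPM with overlap. Acot1 stood at 0.473, 0.798 and 0.544 against 0.823, 2.02 and 1.05 CPM. Brown or beige adipocyte markers moved in these libraries too, 2 of 9 being lower on HFD, with sums of 83.26 to 143.1 CPM against 151.1 to 242.4 CPM, and their part was not tested. The count was 0 without HFD female 7 or RD female 5, 1 without HFD female 3, HFD female 6, RD female 7 or RD female 8, and 6 with the groups alone.

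At 2 weeks the other members fixed for naming did not pass in fat. In females Ppara was 10.1, 18.01 and 32.6 CPM on HFD and 6.15, 14.3 and 12.3 CPM on RD, and Pdk4 234, 478 and 575 against 146, 319 and 209 CPM, both overlapping. Angptl4 was 199.5, 575 and 491 CPM on HFD and 397, 388 and 375 CPM on RD. HFD female 1 was the lowest for all 3 on HFD, and it also had the lowest adipocyte sum (11150 CPM) and a sum of 3093 CPM for markers of other epithelia, against at most 82.02 CPM in the other females on HFD at 2 weeks. Acot1 was 21.3 CPM in that library and 0.616 and 1.07 CPM in the others on HFD, against 0.726, 1.57 and 1.08 CPM on RD. In males no member was called (0% of all genes), 4 had an unadjusted p under 0.05, 2 of them positive and 2 negative, and DESeq2 called 0. The median of the members in these males was -0.23 beside 0.03 over all genes. Pdk4 was 208, 195 and 132 CPM on HFD and 52.9, 81.5 and 106 CPM on RD in males, without overlap (log2 difference 1.15 ± 0.43, edgeR adjusted p = 0.38). Angptl4 was 839, 621 and 777 against 444, 623 and 505 CPM, Ppara 9.93, 6.79 and 7.71 against 9.60, 9.80 and 10.9 CPM, and Acot1 0.283, 3.66 and 7.87 against 8.86, 2.98 and 3.13 CPM, all with overlap.

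**Figure D4:**
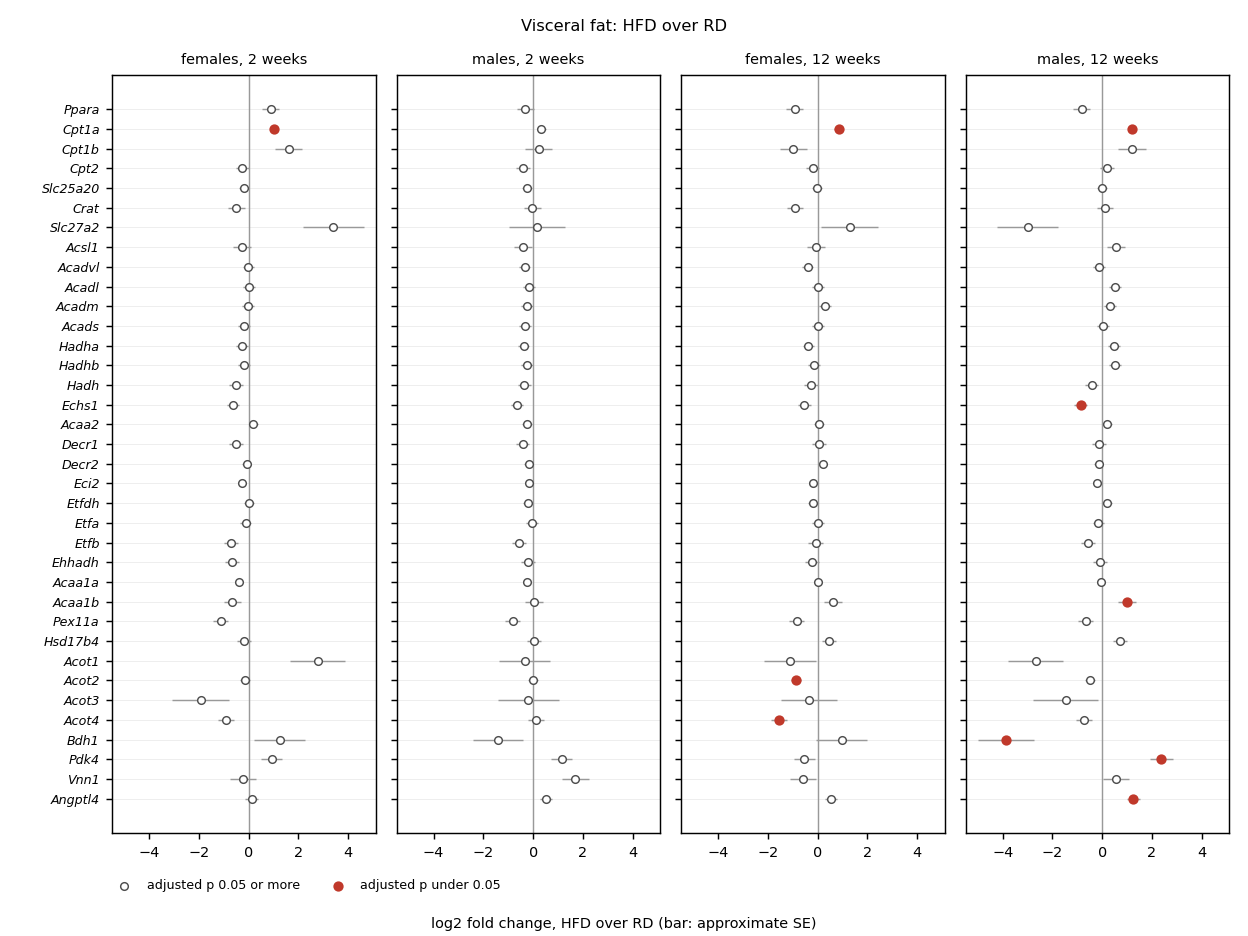
Log2 fold changes of HFD over RD in fat for 36 members (bars: approximate SE, filled points: edgeR adjusted p under 0.05), in 4 panels by sex and time. Cpt1a is filled in females at 2 weeks (1.02), females at 12 weeks (0.84) and males at 12 weeks (1.19), and males at 2 weeks have no filled point.

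The counts of other pathway genes in male fat at 12 weeks stand beside 13.2% of all genes higher and 15% lower, and those in female fat beside 1.3% and 0.775%. In males 7 of 20 further genes of mitochondrial oxidation fell and none rose, led by Echdc2 (61.1 to 15.8 CPM, log2 fold change -1.96 ± 0.18). The median of that list was -0.6 beside -0.11 over all genes. In females 4 of 20 fell, led by the medium-chain acyl-CoA synthetase Acsm3 (123 to 12.7 CPM, log2 fold change -3.28 ± 0.41). Among 32 other PPAR alpha targets in males, 5 rose, a share near that of all genes, among them the uncoupling protein Ucp2 (log2 fold change 1.93 ± 0.2) and the lipid droplet coat Plin2 (log2 fold change 2.26), and 2 fell. Of 22 other peroxisomal genes in males, 1 rose and 6 fell. Of 14 fasting genes 1 rose and 2 fell, of 27 regulators 1 rose and 4 fell, among them Tfam, a mitochondrial transcription factor (37 to 23.7 CPM, log2 fold change -0.64 ± 0.14), and of 15 genes of acyl-CoA synthesis and uptake 2 rose and 1 fell. In females none of these 3 lists had a gene that rose, and 3 regulators fell, Ppargc1a and the acetyl-CoA carboxylases Acaca and Acacb. In females at 2 weeks Ppargc1a, a coactivator of PPAR alpha, rose from 7.34 to 46.0 CPM (log2 fold change 2.65 ± 0.49), and at 12 weeks it fell (log2 fold change -2.07). Brown or beige adipocyte markers at 2 weeks summed to 302.7 to 848.6 CPM on HFD and 123.4 to 436.4 CPM on RD. Their part was not tested. All genes called there numbered 43, but 11, 14, 3 and 3 without HFD female 1, RD female 1, RD female 2 and RD female 4. Without HFD female 2 they numbered 1212.

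Differences between the sexes in fat stood beside markers of other cells. On RD at 2 weeks, 3 of 36 members differed, 2 higher and 1 lower in females (4.28% of all genes, 1.94% higher and 2.34% lower). The median log2 fold change of the members was 0.37 on RD and 0.34 on HFD, beside 0 over all genes in both. Cpt1a was lower in females, at 57.2, 58.7 and 71.6 against 98.2, 113 and 118 CPM (log2 fold change -0.81 ± 0.17, edgeR adjusted p = 0.012). Acot2 was higher, at 18.6, 28.8 and 31.7 against 12.4, 17.1 and 16.1 CPM (log2 fold change 0.8 ± 0.2, edgeR adjusted p = 0.035), and Cpt1b was higher, at 2.33, 24.3 and 13.1 against 2.60, 3.59 and 3.54 CPM (log2 fold change 2.03 ± 0.56, edgeR adjusted p = 0.047), with female 1 below every male. On HFD at 2 weeks, 3 of 36 were higher in females (3.8% of all genes, 2% higher and 1.8% lower). Cpt1b was 34.1, 26.4 and 60.9 against 2.22, 5.01 and 4.19 CPM (log2 fold change 3.41 ± 0.59, edgeR adjusted p = 0.0046), Ppara 10.1, 18.01 and 32.6 against 9.93, 6.79 and 7.71 CPM (log2 fold change 1.31 ± 0.34, edgeR adjusted p = 0.04) and Hadhb, the beta subunit of the trifunctional protein, 276, 505 and 603 against 284, 235 and 233 CPM (log2 fold change 0.88 ± 0.24, edgeR adjusted p = 0.049), with HFD female 1 below the highest male for Hadhb. Markers of brown or beige adipocytes, cells that burn fat for heat, were higher in females too, 6 of 9 on RD and 8 of 9 on HFD, with sums of 123.4, 436.4 and 320.3 CPM in RD females, 488.9, 302.7 and 848.6 CPM in HFD females and 36.44 to 82.18 CPM in the 2-week males. Among the 2-week females, Cpt1b was lowest in RD female 1 and highest in HFD female 5, as was that sum, and its part in the result was not tested. Skeletal muscle markers varied too, with a mean log2 of CPM plus 1 of 0.88 to 3.87 in RD females and 1.04 to 2.77 in HFD females. In RD and HFD males it was 1.06 to 1.75 and 0.94 to 1.36, and the part of these markers was not tested either. Without the 3 libraries with high epididymis markers the counts were 0 on RD and 1 on HFD, the latter Cpt1b. The count on RD was 0 without RD female 2 and 1 without RD female 4 or RD male 6, 7 or 8. On HFD it was 9 without HFD female 1 and 1 without HFD female 5 or HFD male 13 or 14, and the groups alone gave 1 on RD and 0 on HFD. Without HFD female 1, 423 of all genes were called, beside 696 in the full fit.

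At 12 weeks on RD, 5 of 36 members differed between the sexes in fat, 4 higher and 1 lower in females, against 10.6% of all genes (4.45% higher and 6.16% lower). The median of the members was 0.19 beside -0.02 over all genes. Pdk4 was 179.9, 98.5 and 254 CPM in females and 50.8, 58.9 and 38.6 CPM in males, without overlap (log2 fold change 1.84 ± 0.44, edgeR adjusted p = 0.018). Hadha was 425, 301 and 299.5 against 217, 228 and 168 CPM (log2 fold change 0.74 ± 0.23, edgeR adjusted p = 0.046), and Cpt2, which releases fatty acids from carnitine inside mitochondria, was 166, 132 and 108 against 87.0, 84.5 and 51.1 CPM (log2 fold change 0.86 ± 0.27, edgeR adjusted p = 0.05). Neither overlapped. Acot4 was 25.9, 18.5 and 38.6 against 13.6, 19.1 and 8.15 CPM with overlap (log2 fold change 1.02 ± 0.32, edgeR adjusted p = 0.049), and Bdh1 was lower in females, at 0.645, 1.39 and 1.13 against 4.33, 4.98 and 32.8 CPM (log2 fold change -3.73 ± 1.11, edgeR adjusted p = 0.042). The count was 0 without RD female 5, RD female 8 or RD male 4, 2 without RD female 7 or RD male 3, and 3 with the groups alone, and all 3 males had the epididymis sums given above. Brown or beige adipocyte markers were higher in these females, 5 of 9 and none lower, with sums of 151.1 to 242.4 CPM against 51.79 to 69.72 CPM in the males, and their part in the result was not tested. On HFD at 12 weeks edgeR called 0 of 36 (2.85% of all genes), with 2 members at an unadjusted p under 0.05, while DESeq2 called 1, Acot3, and the groups alone 4. Females stood at 4.16 to 6.30 CPM of Ppara and males at 4.07 to 6.93 CPM there.

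The diet's effect on Pdk4 in fat differed between the sexes at 12 weeks, the only member called in that test (1 of 36, against 1.25% of all genes, 0.295% higher and 0.955% lower). Pdk4 was not called in females and rose in males, with the values given above, and the difference of the log2 changes, females minus males, was -2.92 ± 0.62 (edgeR adjusted p = 0.027). The call was lost without HFD female 3, 6 or 7, HFD male 4, RD female 5 or 8, or RD male 3 or 4, each leaving 0 members. The epididymis sums of 3627 to 5479 CPM in RD males and 20.32 to 21.32 CPM in HFD males lie in the male arm of this test, and their part was not tested. DESeq2 and the groups alone gave 3 each. At 2 weeks no member was called (0% of all genes), 5 had an unadjusted p under 0.05, and DESeq2 called 0.

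Between the cohorts at 2 and 12 weeks, HFD females had 3 of 36 members lower at 12 weeks in fat (1.51% of all genes, 0.9% higher and 0.606% lower). The median of the members was -0.23 in these females and 0.08 in HFD males, beside -0.03 and -0.05 over all genes. Ppara was 5.81, 6.30 and 4.16 against 10.1, 18.01 and 32.6 CPM (log2 fold change -1.9 ± 0.35, edgeR adjusted p = 0.011). Cpt1b was 3.54, 7.36 and 4.11 against 34.1, 26.4 and 60.9 CPM (log2 fold change -3.02 ± 0.58, edgeR adjusted p = 0.015), and Pdk4 was 149, 91.2 and 126 against 234, 478 and 575 CPM (log2 fold change -1.81 ± 0.44, edgeR adjusted p = 0.047). None overlapped. Brown or beige markers fell along with them, 4 of 9, from sums of 302.7 to 848.6 CPM to sums of 83.26 to 143.1 CPM, and Ppargc1a fell by 3.96 on the log2 scale. Their part was not tested. The count was 1 without HFD female 3 and 0 without HFD female 7 of 12 weeks, 5 without HFD female 1 of 2 weeks, and 0 with the groups alone. In HFD males Cpt1a was higher at 12 weeks (191, 225 and 213 against 142, 124 and 149 CPM, log2 fold change 0.6 ± 0.17, edgeR adjusted p = 0.027) and Vnn1 lower (7.02, 6.99 and 11.7 against 35.2, 26.0 and 22.6 CPM, log2 fold change -1.71 ± 0.53, edgeR adjusted p = 0.042), 2 of 36 members against 12.1% of all genes (5.94% higher and 6.12% lower). Both calls were lost without HFD male 3 or 4 of 12 weeks or HFD male 13 or 14 of 2 weeks (0 members), and Vnn1 alone without HFD male 2 of 12 weeks or HFD male 12 of 2 weeks (1 member). On RD no member was called with time in either sex (0% of all genes in each), with 2 members at an unadjusted p under 0.05 in each, and DESeq2 called Cpt1a in females and 0 in males.

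**Figure D5:**
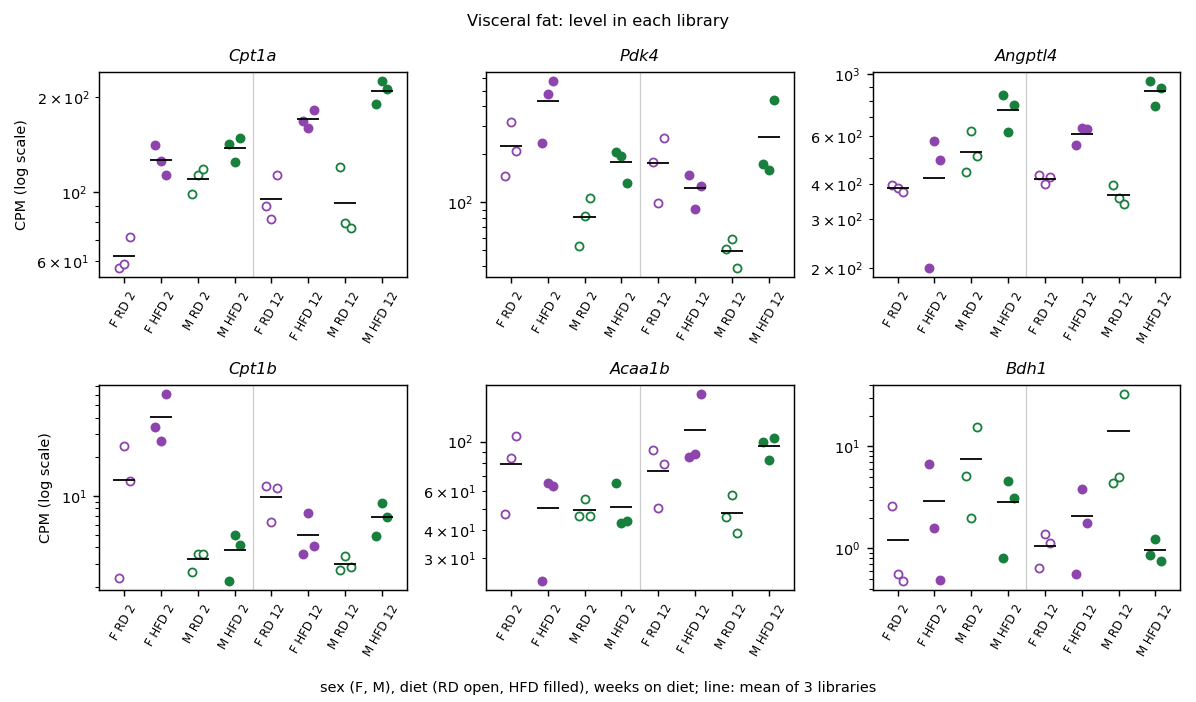
CPM per library on a log axis in fat for 6 members, by sex (F, M), diet (RD open, HFD filled) and weeks on the diet, with a line at the mean of 3 libraries. Cpt1a at 12 weeks is 160.3 CPM or more in every HFD library and 120.3 CPM or less in every RD library, and Cpt1b is highest in the 3 HFD females at 2 weeks (26.4 to 60.9 CPM).

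Between the tissues, 8 members were called in opposite directions under 2 scalings. Acads, Etfb and Etfa were called under joint TMM alone, and Acot2 under library totals alone. With joint TMM scaling (median factor 0.7 in liver and 1.45 in fat) 32 members were higher in liver and 3 lower, against 80.4% of all genes called (36.6% higher and 43.8% lower). With library totals alone 21 were higher and 12 lower, against 88.3% of all genes (13.3% higher and 75% lower). The median of all genes was -0.17 and -1.24 under these scalings, and that of the members 1.35 and 0.28. Called higher in liver under both were 21 members, and lower under both were 3, Crat, Pdk4 and Angptl4. The share of all genes without overlap between the tissues was not counted. For 8 members, Ppara, Cpt1a, Slc27a2, Acaa2, Decr2, Eci2, Etfdh and Bdh1, the 24 liver libraries lay above all 24 fat libraries on library totals. Ppara ranged from 52.0 to 257 CPM there in liver (median 149) and from 4.01 to 32.2 CPM in fat (median 9.66). Bdh1 ranged from 114 to 434 CPM and from 0.392 to 33.6 CPM, and Cpt1a from 285 to 794 CPM and from 53.1 to 240 CPM. Pdk4 went the other way, at 4.28 to 49.9 CPM in liver and 39.6 to 568 CPM in fat (median 22.4 and 157), with overlap, and Angptl4 had medians of 127 and 498 CPM. Hadhb (0.33 and -0.74), Acsl1 (0.49 and -0.58) and Cpt1b (0.39 and -0.69) were among the 8, with the log2 difference under joint TMM given before that under library totals. Acads and Etfb had -0.05 ± 0.06 and -0.06 ± 0.08 under library totals (edgeR adjusted p = 0.45 and 0.51). Etfa had 0.06 ± 0.06 (edgeR adjusted p = 0.32) and Acot2 -1.23 ± 0.13 (edgeR adjusted p = 3.4e-11) under the same scaling.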

How the data were processed

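The 48 libraries were deposited by the authors as 1 table of expected counts per gene, which need not be whole numbers (0.0936% of nonzero values were whole within 1e-06). Per the submitters' processing notes, the tools were kallisto, DESeq2 and edgeR and the genome build GRCm38, with neither versions nor roles stated. The summing of transcripts to genes is not given in the sources. Counts were rounded, filtered on low counts with filterByExpr, scaled by TMM and fitted with edgeR 4.0.16 (quasi-likelihood, robust, R 4.3.3, limma 3.58.1), 1 fit per tissue over 24 libraries and a joint fit for liver against fat, with Benjamini-Hochberg adjustment over all genes at 0.05. SE was taken from the log2 fold change and its F value. DESeq2 1.42.0, RLE scaling, no low-count filter, the groups of a comparison alone, each library left out and a replicate block were alternatives. Leaving out 3 fat libraries with epididymis markers, and library totals for the tissues, were added after the data were seen. Scripts were tested on simulated data. Members and lists were chosen with earlier results of these data known. Library values are given for members called, at most 8 per comparison by smallest p, and for Ppara, Cpt1a, Pdk4, Acot1 and Angptl4 in diet comparisons, with at most 3 genes per pathway list. One pathway list is not reported here. Members named outside this rule were chosen after their values were seen. In fat of 12-week males, deviations of libraries with the same group number had correlations r of 0.108, 0.134 and 0.154. The labels state no pairing, the main fits used no replicate block, and the block was an alternative only.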

Additional observations from a re-analysis of the deposited data

Results flagged for a closer look

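In fat at 12 weeks, the response to HFD differed between females and males for Pdk4, the kinase that restrains pyruvate oxidation, by a test of the difference itself. The log2 difference of responses, females minus males, was -2.92 ± 0.62 (edgeR adjusted p = 0.027). Pdk4 was higher on HFD in all 3 males than in any RD male, while the females overlapped between diets.

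Among the pathway genes the same test was passed by Plin2, a coat protein of lipid droplets, at -2.32 ± 0.52 (edgeR adjusted p = 0.036). Plin2 was 377.7, 531.6 and 436.8 CPM in HFD females and 443.3, 654.3 and 302.2 CPM in RD females. It was 872.6, 928.2 and 1656 CPM in HFD males and 286, 246.3 and 188.3 CPM in RD males. Ucp2, a mitochondrial carrier, had -1.52 ± 0.28 (edgeR adjusted p = 0.0095). Ucp2 was 157.8, 125.4 and 162.5 CPM in HFD females and 95.92, 79.81 and 160.4 CPM in RD females. It was 257.1, 297.9 and 374.1 CPM in HFD males and 80.93, 81.91 and 80.73 CPM in RD males. For both genes the males did not overlap between diets and the females did. Leaving out 1 library lost the Pdk4 call in 8 of 12 cases, the Plin2 call in 8 and the Ucp2 call in 1, without HFD male 4. Macrophage markers moved in the same test, 4 of 14 being lower. Epididymis markers summed to 3627 to 5479 CPM in RD males, 20.32 to 21.32 CPM in HFD males and at most 9.882 CPM in females. The part of either in these results was not tested.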

How the results depend on the processing

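Counts of called members moved by over 1.5 times in these cases, and the cause was not tested. Shares of all genes called under the alternatives are not given in this section. DESeq2 gave 9 in liver for diet in females at 2 weeks, 1 for diet in males at 2 weeks, 4 for the interaction at 2 weeks and 1 for time in RD males. In fat it gave 5 for diet in females at 2 weeks, 10 for diet in males at 12 weeks, 8, 12 and 12 for sex on RD at 2 weeks, HFD at 2 weeks and RD at 12 weeks, 1 for sex on HFD at 12 weeks, 3 for the interaction at 12 weeks, and 8 and 1 for time in HFD and RD females. The groups alone gave in liver 15, 6 and 3 for sex on RD at 2 weeks, HFD at 2 weeks and HFD at 12 weeks and 5 for time in HFD males. In fat they gave 0, 6 and 10 for diet in females at 2 and 12 weeks and males at 12 weeks, 1, 0, 3 and 4 for sex on RD and HFD at 2 weeks and on RD and HFD at 12 weeks, 3 for the interaction at 12 weeks, and 0 and 4 for time in HFD females and males. Without the low-count filter fat gave 1 for sex on RD at 2 weeks, HFD at 2 weeks and RD at 12 weeks, and 1 for time in HFD males. Without the 3 fat libraries with epididymis markers, sex gave 0 on RD and 1 on HFD at 2 weeks and time in HFD males 0.

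With the replicate block, the count in fat was 10 for diet in males at 12 weeks and 0 for diet in females at 2 weeks, and the block moved no other count of members by over 1.5 times. Same-numbered libraries in the other groups given a block had correlations of -0.112 to 0.127. In fat of 2-week females a pair with different numbers reached 0.265, so these correlations cannot decide whether libraries were paired.

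Leaving out 1 library gave, in liver, 2 to 5 and 11 to 16 for sex on RD and HFD at 2 weeks, 1 to 3 and 2 to 4 at 12 weeks, 0 to 2 for diet in females at 2 weeks and 8 to 12 for time in HFD males. In fat it gave 0 to 2, 0 to 1 and 3 to 6 for diet in females at 2 and 12 weeks and males at 12 weeks, 0 to 4, 1 to 9 and 0 to 5 for sex on RD and HFD at 2 weeks and RD at 12 weeks, 0 to 1 for the interaction at 12 weeks, and 0 to 5 and 0 to 1 for time in HFD females and males. Liver against fat gave 34 to 35.

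Library totals gave a value below 0 for 10 members that joint scaling put above 0, 8 of them called and 2, Acads and Etfb, not: Acadl -0.45, Acadm -0.26, Acads -0.05, Acsl1 -0.58, Cpt1b -0.69, Decr1 -0.4, Echs1 -0.34, Etfb -0.06, Hadh -0.23 and Hadhb -0.74 (log2, liver over fat). Over all members and alternatives, 920 called values kept their call, 226 lost it and 10 changed sign. These counts include liver against fat, where nearly all calls were kept, so calls within a tissue were less stable than the pooled counts. With 3 libraries a group, a p that missed the threshold does not show that groups were alike.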
